A study of Mus musculus with 9 samples.

Results

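Autotaxin, the enzyme that makes the signalling lipid lysophosphatidic acid (LPA), was described together with 5 LPA receptors and 2 phosphatases that break LPA down. The members are the mouse genes Enpp2, Lpar1, Lpar2, Lpar3, Lpar4, Lpar6, Ppap2a and Ppap2b, 8 genes of 31710 measured, and they were read by 11 probes of 39429. They were found by their symbols among the probes that are not controls. The group was selected from log2 ratios of these same arrays that were already known, so the differences of its members between tissues are given as a description, with no test. The samples were the choroid (CH), the retinal pigment epithelium (RPE) and the photoreceptors (PR) of female C57BL/6 mice (of the J substrain by the study's methods), cut out of eye sections by laser. There were 3 samples per tissue, each from 1 whole eye, and the mice were 6 months old (range 2 weeks) by the sample labels and slightly younger by the study's methods. Amplified RNA of the tissue was labelled with Cy5 and hybridised on a dual-colour Agilent whole mouse genome array against Cy3-labelled RNA of a common RPE and choroid reference. The dyes were not swapped on any of the 9 arrays. The study compared the RPE with the layer on either side of it, and the 3 comparisons here are RPE with CH, RPE with PR and CH with PR.

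LPA is a small phospholipid that acts outside the cell. Autotaxin, the product of Enpp2, is a secreted lysophospholipase D that cuts choline from lysophosphatidylcholine and so releases LPA. LPA binds G protein-coupled receptors of separate families. Those encoded by Lpar1, Lpar2 and Lpar3 belong to the EDG family, which also holds the receptors for sphingosine-1-phosphate (S1P), and those encoded by Lpar4 and Lpar6 are related to the P2Y purine receptors. The lipid phosphate phosphatases encoded by Ppap2a and Ppap2b, now named Plpp1 and Plpp3, lie in the membrane and remove the phosphate from LPA, which ends the signal. In the eye, autotaxin is known as a product of pigment epithelia and is found in the fluids of the eye.

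The probes are 60-base oligonucleotides, and what a probe can tell depends on where in the transcript it sits. The sequences that follow are those of probes within the coding part of the transcript, printed because they show which end of the message was read for autotaxin, for Lpar1 and for the genes whose probes gave different values. Positions are on mm9, as in the array files.
Enpp2, chr15:54670921-54670980, minus strand: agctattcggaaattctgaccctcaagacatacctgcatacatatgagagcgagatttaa
Lpar1, chr4:58499672-58499731, minus strand: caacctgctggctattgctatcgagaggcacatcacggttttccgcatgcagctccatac
Lpar2, dimmer probe, chr8:72350307-72350366, plus strand: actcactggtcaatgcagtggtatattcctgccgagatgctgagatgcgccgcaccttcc
Ppap2a, brighter probe, chr13:113657685-113657744, plus strand: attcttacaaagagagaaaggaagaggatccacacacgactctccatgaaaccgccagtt
Ppap2a, dimmer probe, chr13:113641733-113646983, plus strand: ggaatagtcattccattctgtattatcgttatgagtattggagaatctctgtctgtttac
The Enpp2 probe ends with the stop codon, so it reads the last codons of the enzyme. The dimmer Ppap2a probe spans 2 positions far apart in the genome, which places it across an exon junction upstream of the brighter one. The 2 Lpar6 probes, at chr14:73639469-73639528 and chr14:73639502-73639561 on the plus strand, share the 27 bases GAACTATCTCTCCGGCTCCAACAAAAA and are therefore not independent readings of the gene. The other probes lie at chr8:72354818-72354877 for the brighter Lpar2 probe, chr3:145948720-145948780 for Lpar3, chrX:104127529-104127588 for Lpar4 and chr4:104905037-104905096 for Ppap2b, all on the plus strand. Each member probe has 1 spot on an array, and no such spot carried an outlier mark.

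Values are log2(Cy5/Cy3), the log2 ratio of tissue to reference after background correction and loess normalization, and a difference between tissues is a difference of the means of 3 arrays ± the standard error (SE) of the linear model fitted to all 9. A ratio compares 1 probe between arrays, and ratios or signals of different probes are not compared with each other. In Cy5, 62.0% to 71.2% of the probes were well above background on 8 arrays and 91.6% on RPE replicate 2, which stood apart. The tissue labels were checked with 3 marker genes and a list of rod genes. Rpe65, the isomerase of the visual cycle, was 3.02-fold higher in RPE than in CH (adjusted p = 0.00023) and 46.5-fold higher than in the PR (adjusted p = 8.2e-09), with saturated spots on all 3 RPE arrays. Col1a1, a fibroblast collagen, was 12.3-fold lower in RPE than in CH (adjusted p = 3.1e-06). Pecam1, an endothelial adhesion molecule, differed by -0.17 ± 0.23 on the log2 scale between RPE and CH (adjusted p = 0.68), with 3 of 3 arrays well above background in every tissue. All 8 rod markers used here were called lower in both layers than in PR.

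The RPE and the CH both lay above the PR for most of the group. A call required 1 or more probes of a gene beyond a fold change of 2.5 at an adjusted p under 0.01. Of the 8 genes, 7 were called higher in RPE than in PR, where 11.3% of all genes were called in this direction, and the same 7 were called higher in CH than in PR, where the share of all genes was 13.2%. Lpar1 was the gene not called. In the opposite directions 5.67% of all genes were called lower in RPE than in PR and 6.85% lower in CH than in PR, and no member was among them. Between the neighbouring layers RPE and CH, 1 member, Enpp2, was called higher in the RPE (0.218% of all genes) and no member was called lower (1.82% of all genes). These counts come from the contrasts that the choice of the group used, so nothing is read from them. The RPE and CH comparisons with the PR share the PR arrays. In these dissected tissues, fewer cells of a type and less RNA per cell cannot be told apart.

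**Figure D1:**
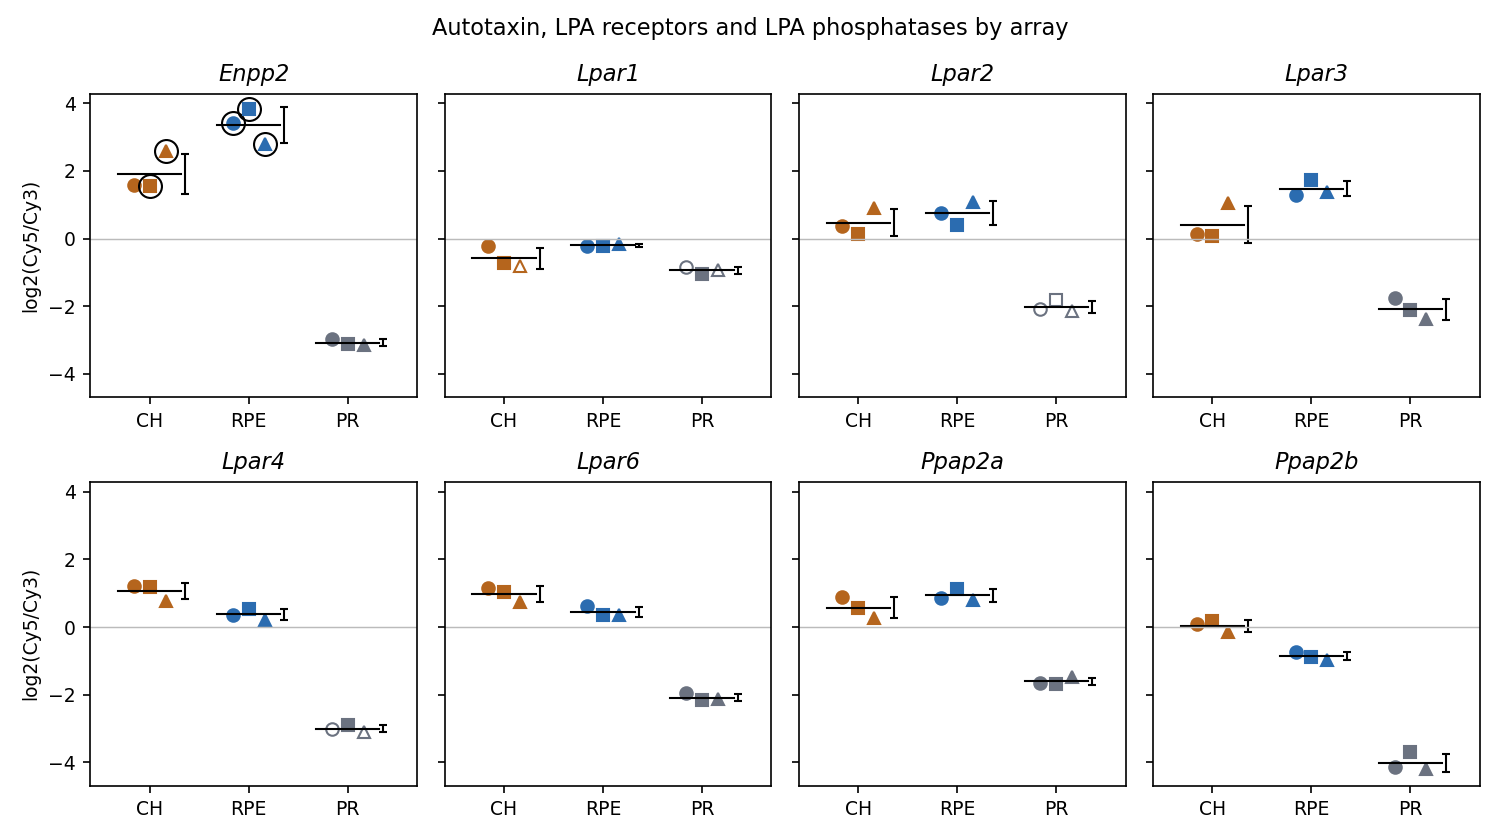
log2(Cy5/Cy3) of the reported (brightest) probe of each of the 8 genes on the 9 arrays, by tissue. Circles, squares and triangles are replicates 1, 2 and 3, open symbols are spots not well above background in Cy5, rings mark saturated Cy5 spots, lines are means of 3 arrays and bars beside them ± SD. The PR arrays lie below the arrays of the other tissues for every gene, by the smallest margin for Lpar1.

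Autotaxin had its highest ratios in the RPE. The log2 ratio of Enpp2 was 3.43, 3.84 and 2.80 on the RPE arrays, 1.58, 1.56 and 2.59 on the CH arrays and -2.96, -3.12 and -3.15 on the PR arrays. Every RPE array lay above every CH array, and every PR array lay far below both. The means were 3.36 ± 0.53 (SD, n = 3) in the RPE, 1.91 ± 0.59 in the CH and -3.08 ± 0.10 in the PR. The RPE exceeded the CH by 1.45 ± 0.31 (2.72-fold), the RPE exceeded the PR by 6.43 ± 0.31 and the CH exceeded the PR by 4.99 ± 0.31.

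The Enpp2 spot was, however, at the limit of the scanner. Its Cy5 signal was saturated on RPE replicates 1, 2 and 3 and on CH replicates 2 and 3, and it was not saturated on CH replicate 1 or on any PR array. The Cy5 signal as scanned was 644735, 590917 and 641785 on the RPE arrays, 518041, 589491 and 641279 on the CH arrays and 52082, 36989 and 71758 on the PR arrays. RPE and CH therefore overlap in Cy5, while every PR array is far lower. From the normalized Cy5 channel the RPE level was at least 10.1-fold above that of the PR. Such a bound uses 1 dye and is open to dye bias. No bound can be given between RPE and CH, since CH spots were saturated too, and the mean log2 Cy5 signals were 18.47 in the RPE and 18.22 in the CH.

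The Cy3 channel carried RNA of the common reference on every array, yet its signal at the Enpp2 spot varied with the tissue in the other channel. The Cy3 signal was 20684, 14938 and 29095 on the RPE arrays, 51549, 53702 and 27852 on the CH arrays and 204664, 203557 and 175302 on the PR arrays. It was lowest beside the RPE and highest beside the PR, with a 13.7-fold range, and no Cy3 spot was saturated. After normalization the Cy3 signal was lower on RPE than on CH arrays by 1.20 and the Cy5 signal was higher by 0.25, both in log2. As the Cy5 difference is one between spots that were mostly saturated, the share of the tissue channel in the ratio difference was not measured. Between RPE and PR the ratio difference held 3.34 from Cy5, saturated in the RPE, and 3.09 from Cy3 in log2.

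**Figure D2:**
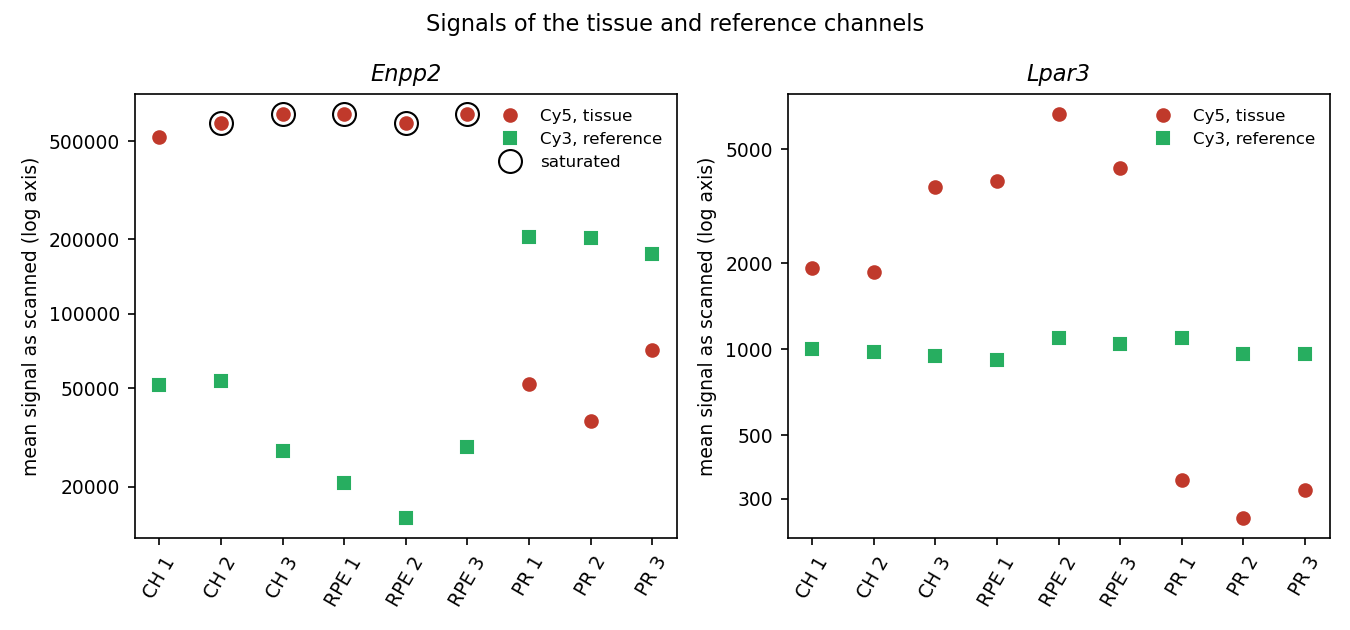
Mean signal as scanned, on a log axis, of the tissue channel (Cy5, circles) and the reference channel (Cy3, squares) for Enpp2 and Lpar3 on the 9 arrays, with rings around saturated spots. The reference signal of Enpp2 runs from 14938 to 204664 and opposite to the tissue signal, while that of Lpar3 stays between 914 and 1099.

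Few probes had a less constant reference signal. The SD of the normalized Cy3 signal over the 9 arrays was 1.40 for Enpp2, in log2, against a median of 0.21 over all 39429 probes, which ranks Enpp2 at place 175 from the top. The other 10 probes of the group had SDs between 0.07 for Lpar3 and 0.46 for the dimmer Lpar2 probe. Enpp2 shared this behaviour with other very bright probes. Of the 21 probes saturated in Cy5 on all RPE arrays and on no PR array, Enpp2 among them, all 21 had a lower Cy3 signal on the RPE arrays than on the PR arrays, with a median of -2.69 and a range from -3.70 to -0.15. The 13 probes saturated on all PR arrays and on no RPE array were turned the other way, with a median of 2.10. Over all 39429 probes the median was -0.10, and 26855 had a lower Cy3 signal on the RPE arrays than on the PR arrays. Of the 21 probes, those of Tpt1 (-0.15) and Rpl41 (-0.18) lay near that median. The 21 include Trf (-3.70), which encodes transferrin, Rdh5 (-3.12), a retinol dehydrogenase, Ttr (-2.73), transthyretin, and Rpe65 (-2.69). What lowers the reference signal beside a saturated tissue signal was not tested.

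**Figure D3:**
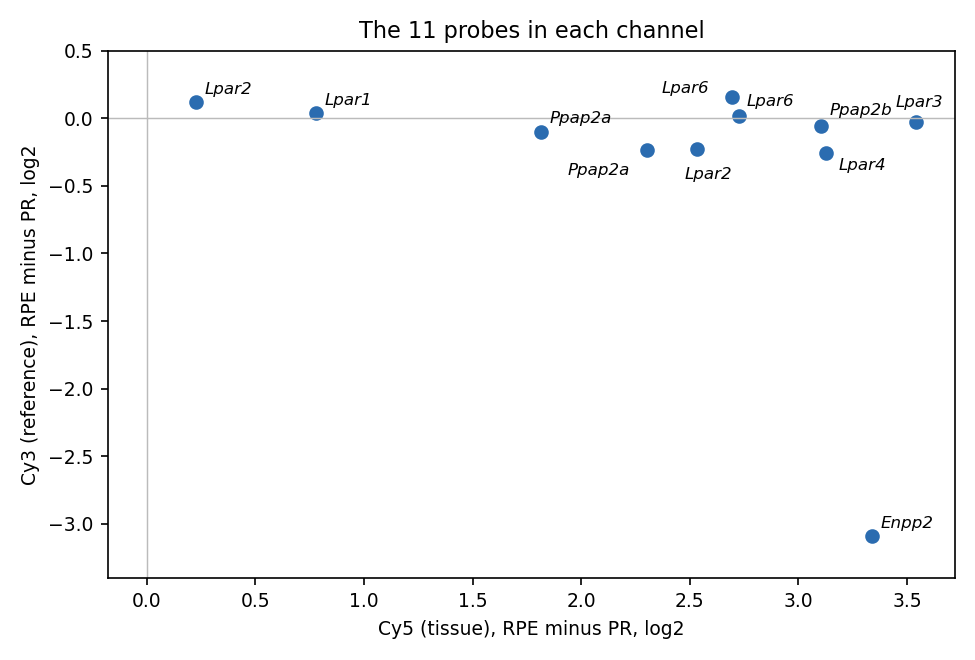
Difference between RPE and PR in the reference channel (Cy3, vertical axis) against that in the tissue channel (Cy5, horizontal axis), both in log2 after normalization, for the 11 probes. Enpp2 lies at -3.09 in Cy3, and the other 10 probes lie between -0.26 and 0.16.

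The call of Enpp2 between RPE and CH was sensitive to single arrays. Its difference ranged from 1.20 without RPE replicate 2, the array that stood apart, to 1.78 without CH replicate 3. The call held without CH replicate 3 and without RPE replicate 3 and was lost when any other single array was left out. With the Cy5 channel alone the difference was 0.15. Within slide 1, which held CH and RPE replicates 1 and 3, the RPE exceeded the CH by 1.03, and within slide 2, with replicate 2 of each tissue, by 2.28. The difference from the PR within slide 2, the one slide that held PR and other arrays, was 6.96 for the RPE and 4.68 for the CH. The study's own list of genes higher in the RPE than in both neighbouring layers, made with the same thresholds, does not hold Enpp2.

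The means of Lpar1, Lpar2 and Lpar3, the receptors of the EDG family, had the same order of tissues as autotaxin. Only for Lpar3 did the RPE and CH arrays not overlap. The log2 ratio of Lpar3 was 1.30, 1.74 and 1.39 on the RPE arrays, 0.14, 0.07 and 1.04 on the CH arrays and -1.77, -2.12 and -2.38 on the PR arrays. All RPE arrays lay above all CH arrays, and CH replicate 3 came closest to the RPE, as it did for Enpp2. The RPE mean of 1.48 ± 0.23 (SD, n = 3) exceeded the CH mean of 0.42 ± 0.55 by 1.06 ± 0.26 (2.09-fold) and the PR mean of -2.09 ± 0.31 by 3.57 ± 0.26 (11.9-fold). No Lpar3 spot was saturated and all 9 were well above background. Here the reference signal was among the most constant, between 914 and 1099 as scanned, and the Cy5 channel alone gave a difference between RPE and CH of 1.22. The fold change between RPE and CH stayed below 2.5 and Lpar3 was not called in that comparison. Without CH replicate 3 it was called, with a difference of 1.38. Within slide 1 the RPE exceeded the CH by 0.76 and within slide 2 by 1.67.

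Lpar2 was read by 2 probes that gave different pictures. At the brighter probe the log2 ratio was 0.76, 0.39 and 1.09 on the RPE arrays, 0.37, 0.14 and 0.91 on the CH arrays and -2.09, -1.81 and -2.15 on the PR arrays. RPE and CH overlapped, with a difference of 0.27 ± 0.22, and the PR lay below both. The PR spots were not well above background on any array, so the ratio there has only a bound. The normalized Cy5 signal in RPE was at least 3.49-fold that in PR and in CH at least 2.96-fold. The log2 difference between RPE and PR, which rests on these PR signals at the background, was 2.76 ± 0.22 over all arrays, 2.20 within slide 2 and 4.95 with the processed signals of the scanner software, and between CH and PR it was 4.57 with the latter. The dimmer probe, in the coding region, was well above background only on CH replicate 1 and RPE replicate 2. Its ratios lay between -0.25 and 0.08 on all 9 arrays, and the differences between tissues were at most 0.11 ± 0.11. The calls of Lpar2 thus rest on the brighter probe, and with the mean of both probes the difference was 1.43 between RPE and PR and 1.27 between CH and PR.

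Lpar1, the first LPA receptor to be identified, differed little between the tissues. The log2 ratio was -0.21, -0.23 and -0.17 on the RPE arrays, -0.22, -0.73 and -0.81 on the CH arrays and -0.85, -1.05 and -0.93 on the PR arrays. The PR arrays were lowest, by a small margin from CH replicate 3, and RPE and CH overlapped at CH replicate 1. The probe was dim. It was well above background on 3 RPE arrays, 2 CH arrays and 1 PR array. The RPE exceeded the PR by 0.74 ± 0.15 (1.67-fold) and the CH by 0.38 ± 0.15 (1.30-fold).

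The receptors related to the P2Y family were ordered the other way, with the CH above the RPE. The log2 ratio of Lpar4 was 1.21, 1.20 and 0.78 on the CH arrays, 0.36, 0.54 and 0.22 on the RPE arrays and -3.01, -2.91 and -3.12 on the PR arrays. The tissues did not overlap. The RPE mean of 0.38 ± 0.16 (SD, n = 3) was below the CH mean of 1.06 ± 0.25, with a difference of -0.69 ± 0.14, and above the PR mean of -3.01 ± 0.10 by 3.39 ± 0.14 (10.5-fold). The CH exceeded the PR by 4.07 ± 0.14 (16.8-fold). On the PR arrays the Lpar4 spot was well above background only on replicate 2, so the size of the difference from the PR depends on signals near the background. It was 4.15 between RPE and PR with the processed signals of the scanner software.

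Lpar6 repeated this order at both of its overlapping probes. At the brighter one the log2 ratio was 1.17, 1.04 and 0.73 on the CH arrays, 0.61, 0.37 and 0.37 on the RPE arrays and -1.96, -2.17 and -2.13 on the PR arrays. All 9 spots were well above background and the tissues did not overlap, though CH replicate 3 and RPE replicate 1 lay close together. The difference between RPE and CH was -0.53 ± 0.13 at the brighter and -0.56 ± 0.13 at the dimmer probe. The CH exceeded the PR by 3.07 ± 0.13 (8.39-fold) and 3.27 ± 0.13 (9.63-fold) at the same probes, and the RPE exceeded the PR by 2.54 ± 0.13 (5.81-fold) and 2.71 ± 0.13 (6.55-fold). For neither receptor did the difference between RPE and CH reach 2.5-fold. Within slide 1 and slide 2 it was -0.70 and -0.65 for Lpar4 and -0.46 and -0.68 for Lpar6.

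The phosphatases also differed from each other. Ppap2b was highest in the CH, with a log2 ratio of 0.08, 0.18 and -0.15 on the CH arrays, -0.73, -0.88 and -0.96 on the RPE arrays and -4.15, -3.71 and -4.19 on the PR arrays. The tissues did not overlap, and the Cy5 signal as scanned was 71696 to 84076 in the CH, 38416 to 42424 in the RPE and 3253 to 4904 in the PR, without saturation. The difference between RPE and CH was -0.89 ± 0.15. The RPE exceeded the PR by 3.16 ± 0.15 (8.92-fold), and the CH exceeded the PR by 4.05 ± 0.15 (16.6-fold). Its reference signal was constant, from 26332 to 34931 over the 9 arrays.

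At the brighter Ppap2a probe, in the last part of the coding sequence, the log2 ratio was 0.87, 1.14 and 0.79 on the RPE arrays, 0.88, 0.56 and 0.26 on the CH arrays and -1.65, -1.68 and -1.49 on the PR arrays. RPE and CH overlapped at CH replicate 1, with a difference of 0.37 ± 0.16. The RPE exceeded the PR by 2.54 ± 0.16 (5.82-fold) and the CH exceeded it by 2.17 ± 0.16 (4.51-fold). The junction probe gave -1.70, -2.01 and -1.66 in the RPE, -1.43, -2.38 and -3.04 in the CH and -3.56, -3.93 and -3.62 in the PR. The order of the means was the same at both probes, but the SD of the CH arrays was 0.81 at the junction probe against 0.31 at the other. The differences from the PR there were 1.92 ± 0.33 for the RPE and 1.42 ± 0.33 for the CH.

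**Figure D4:**
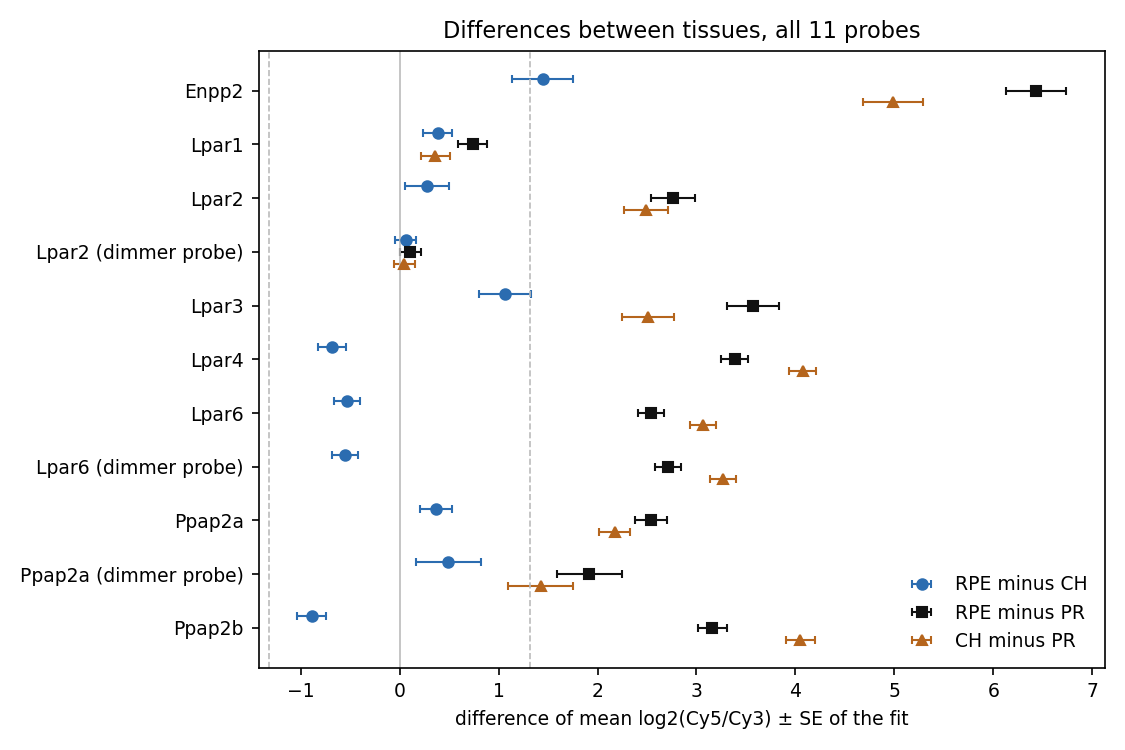
Difference of mean log2(Cy5/Cy3) between tissues ± SE of the linear model for all 11 probes, with dashed lines at the fold change of 2.5 in either direction. Between RPE and CH only Enpp2 lies beyond the dashed line. Lpar3, Lpar1 and the probes of Lpar2 and Ppap2a lie on the same side, and Lpar4, both Lpar6 probes and Ppap2b lie on the other.

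The genes with the most similar profile over the 9 arrays, measured as the root mean square difference between profiles centred on their own mean, were taken from 21434 candidates. For Enpp2 they were Pon1 (0.23, in log2), which encodes the lactonase paraoxonase and was saturated on 1 array, Nid2 (0.25), a basement membrane protein, and Tes (0.26). For Lpar3 they were Ildr1 (0.14), a protein of tricellular junctions, Krt23 (0.16), a keratin, and the locus LOC100046270 (0.16). The nearest profiles to Lpar4 were those of She (0.07), Coch (0.08) and Adgre5 (0.09), and the nearest to Lpar6 were LOC100047863 (0.11), Fmnl3 (0.11) and Adamts9 (0.12). For Ppap2b they were Eya2 (0.12), Pik3cd (0.13) and Zeb2 (0.13), and for Ppap2a they were Tbxa2r (0.11), the thromboxane receptor, Maml2 (0.13) and Gmds (0.15). Lpar1 was nearest to Tpra1, Nt5c2 and Poglut1, at 0.08 to 0.10, and Lpar2 to an unnamed transcript, Col4a5 and 4932438H23Rik, at 0.15 to 0.21. No member was among the nearest genes of another member.

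Markers of other cell types moved with the same tissues. The summed Cy5 signal of 9 RPE markers was 2367100 to 2552770 on the RPE arrays, 1616940 to 2117790 on the CH arrays and 528604 to 619870 on the PR arrays, and 7 of the 9 were called higher in RPE than in CH. Rpe65, Rgr, Rdh5 and Ttr each had a probe saturated in Cy5 on all RPE arrays, so the RPE sum is limited by the scanner. The median difference of these markers between RPE and CH was 1.56 in the log2 ratio. The sum of 7 fibroblast markers was 939562 to 1050250 in the CH, 287346 to 391973 in the RPE and 47203 to 61425 in the PR, and all 7 were called lower in RPE than in CH. In the log2 ratio, the order of Enpp2 and Lpar3 was that of the RPE markers, as was the order of the means of Lpar1, Lpar2 and Ppap2a. For Enpp2 this order holds for the ratio only, since its Cy5 signals, mostly saturated, overlapped between RPE and CH. The order of Lpar4, Lpar6 and Ppap2b was that of the fibroblast, mural cell, pigment cell and Schwann cell markers. The macrophage sums overlapped between CH (203261 to 241102) and RPE (206307 to 224301) and were 63175 to 103518 in the PR. The median log2 difference of the macrophage list between RPE and CH was -0.68, in the same direction as for those lists. The 8 endothelial markers summed to 151594 to 213773 in the CH, 165920 to 197126 in the RPE and 17081 to 21917 in the PR. The 8 mural cell markers summed to 226044 to 355237 in the CH, 156547 to 214570 in the RPE and 17933 to 20815 in the PR, and the 7 measured pigment cell markers to 1030210 to 1100180, 712022 to 845666 and 112073 to 136861. The 6 Schwann cell markers summed to 199181 to 234811 in the CH, 123805 to 144744 in the RPE and 21655 to 26106 in the PR. The 8 rod markers were present in all tissues, with a sum of 604784 to 961519 in the CH, 922176 to 1194320 in the RPE and 2341240 to 3426330 in the PR. Of the other lists, 3 of 8 macrophage and 2 of 6 Schwann cell markers were called lower in RPE than in CH, 1 of 8 Müller glia markers was called in each direction, and the 10 inner retina markers had a median difference of 0.40 in log2. Rpe65, Col1a1 and Pecam1 were well above background on all 9 arrays. Of the RPE markers Best1 was not well above background on any CH array, and of the macrophage markers Cd163 was so on no CH or PR array. The part of these cell types in the members' differences was not tested.

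The rest of the LPA pathway was followed in 97 other genes on 8 lists, none of which holds a member. Of these, 37 (38.1%, against 11.3% of all genes) were called higher and 4 (4.12%, against 5.67%) lower in RPE than in PR. In the CH, 36 (37.1%, against 13.2%) were called higher and 7 (7.22%, against 6.85%) lower than in the PR. Between RPE and CH, 1 (1.03%, against 0.218%) was called higher and 4 (4.12%, against 1.82%) lower in the RPE. The lists were chosen with earlier results of these data known, so no enrichment is read from these shares. They were counted as described and not tested as sets. The median difference over all probes was 0.04 between RPE and CH, -0.01 between RPE and PR and -0.05 between CH and PR. With median centring in place of loess the last split was 11 lower and none higher, with the processed signals of the scanner software it was 6 lower and none higher, and with the Cy5 channel alone or the series table it was 4 lower and none higher. It was also 4 lower and none higher with replicate number as a block and with only the arrays of the 2 tissues. With the Cy5 channel alone the split was 30 higher and 9 lower between RPE and PR. The higher gene was Gpam, a mitochondrial glycerol-3-phosphate acyltransferase that makes LPA inside the cell, with a difference of 1.43 ± 0.30 (adjusted p = 0.0077). A second Gpam probe differed by 0.96 ± 0.21 (1.95-fold, adjusted p = 0.009).

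**Figure D5:**
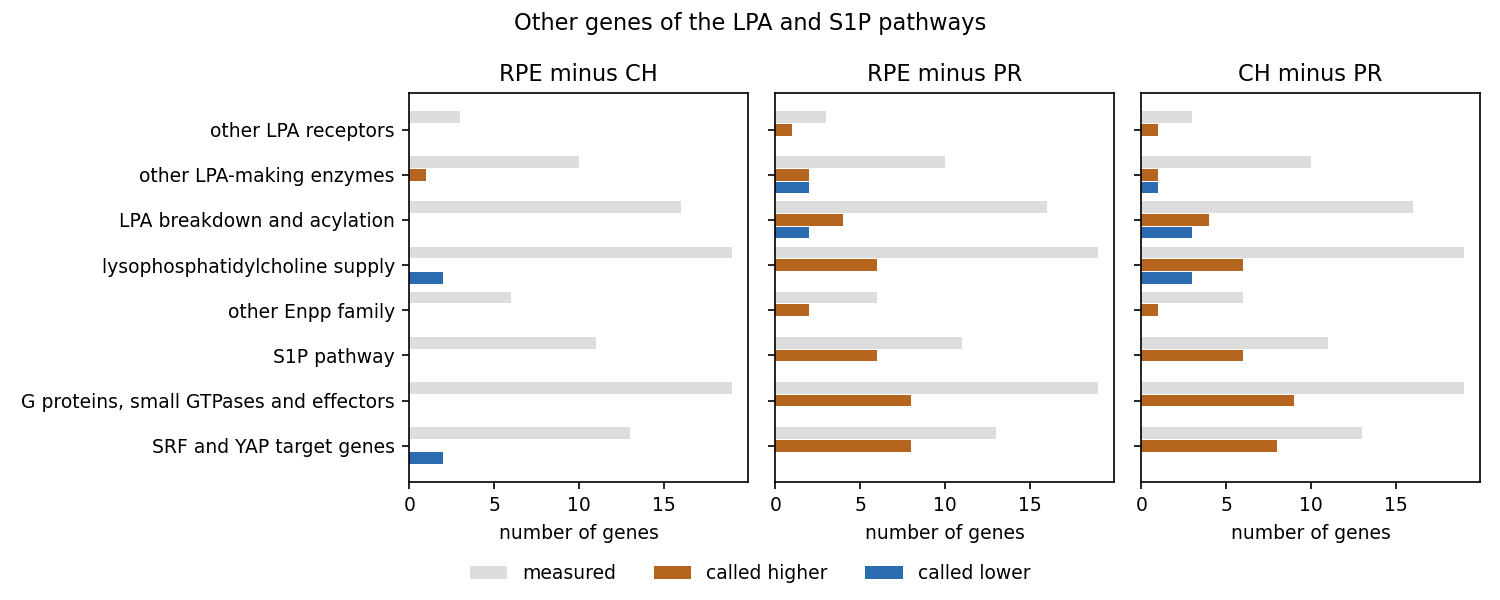
Number of genes measured (grey), called higher (brown) and called lower (blue) in each of 8 lists of pathway genes that hold no member, in the 3 comparisons. Between RPE and CH 5 of 97 genes were called, against 41 between RPE and PR and 43 between CH and PR.

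Among the other LPA receptors and LPA-making enzymes, calls against the PR went in both directions, and the median differences between RPE and PR were -0.11 and -0.06. Of 3 further receptor genes, P2ry10 was called higher in both layers than in the PR, where it was not well above background on any array, and its normalized Cy5 signal exceeded that in the PR at least 1.60-fold in the RPE and at least 3.27-fold in the CH. Lpar5 was dim, being well above background on 1 of 3 arrays in each tissue, and differed by -0.02 ± 0.09 between RPE and CH (adjusted p = 0.93). Of 10 enzymes that make LPA by other routes, 2 were called higher and 2 lower in RPE than in PR. Pla1a, which cleaves phosphatidylserine and can yield lysophospholipids, was called higher in the RPE and CH than in the PR, and Gdpd1, a lysophospholipase D inside the cell, was called lower in both. Agpat9, a glycerol-3-phosphate acyltransferase, had a difference of -1.52 ± 0.14 between RPE and PR (adjusted p = 8.1e-06).

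The third phosphatase of the family ran against its relatives. Ppap2c, now Plpp2, had a log2 ratio of 1.39 ± 0.21 (SD, n = 3) in the PR, -0.33 ± 0.25 in the RPE and -0.36 ± 0.07 in the CH. It was lower in both layers than in the PR, with a difference of -1.72 ± 0.15 for the RPE (adjusted p = 5.5e-06) and -1.75 ± 0.15 for the CH (adjusted p = 4e-06), while RPE and CH differed by 0.03 ± 0.15 (adjusted p = 0.91). A list of 16 genes for the breakdown and acylation of LPA, and relatives of such genes, had a median difference of -0.30 between RPE and PR. Agpat1, Agpat2, Agpat4 and Lppr3 were called higher in both layers than in the PR, and Agpat5 was called lower in both. Lppr3 was listed only as a relative of the phosphatases. The acyltransferases, which turn LPA into phosphatidic acid, were therefore divided. Agpat4 exceeded the PR level by 2.13 ± 0.20 in the RPE (adjusted p = 1e-05) and Agpat5 differed from it by -1.75 ± 0.10 (adjusted p = 2.7e-07).

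The substrate of autotaxin is lysophosphatidylcholine, and 19 genes of its supply and use were measured. The median difference was 0.81 between RPE and PR and 0.09 between RPE and CH, with 6 called higher in RPE than in PR. Mfsd2a, a transporter of lysophosphatidylcholine that carries docosahexaenoic acid, was 19.1-fold higher in RPE than in PR (4.26 ± 0.25, adjusted p = 4.7e-07) and 8.30-fold higher in CH than in PR (adjusted p = 3.7e-06). It was 2.30-fold higher in RPE than in CH (adjusted p = 0.0081), below the fold change of 2.5. Of the phospholipases, which release lysophospholipids from membranes, Pla2g4a was lower in RPE than in CH, with a difference of -1.89 ± 0.16 (adjusted p = 0.00014), and Pla2g2e with one of -1.48 ± 0.14 (adjusted p = 0.00018). Both were higher in RPE than in PR, by 3.17 ± 0.16 and 1.85 ± 0.14 (adjusted p = 2e-07 and 2.1e-06). A second Pla2g2e probe was called in neither comparison. It differed by -1.01 ± 0.21 between RPE and CH (adjusted p = 0.0086) and by 0.86 ± 0.21 between RPE and PR (adjusted p = 0.0072). Lpcat1, which adds a second fatty acid to lysophosphatidylcholine, was lower in CH than in PR (-1.85 ± 0.10, adjusted p = 1.9e-07), and Lpcat3, of the same activity, was higher in RPE than in PR by 1.87 ± 0.11 (adjusted p = 4.3e-07).

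Of the 6 other members of the Enpp family, Enpp1, which makes pyrophosphate outside the cell, and Enpp5 were called higher in RPE than in PR, with differences of 1.61 ± 0.14 and 1.43 ± 0.13 (adjusted p = 8.1e-06 and 9e-06). For Enpp1 this holds at the dimmer of its 2 probes, whose difference between RPE and CH was -1.22 ± 0.14 (adjusted p = 0.00051), a fold change below 2.5. The brighter Enpp1 probe was not called, with a difference of 0.14 ± 0.46 between RPE and PR (adjusted p = 0.83) and of -0.88 ± 0.46 between RPE and CH (adjusted p = 0.23). In the S1P pathway, which shares the EDG receptor family and the phosphatases with LPA, 6 of 11 genes were called higher in each layer than in the PR, and the median difference was 1.36 between RPE and PR. The transporter Spns2, which exports S1P, was 17.0-fold higher in the RPE (adjusted p = 6.7e-09) and 13.0-fold higher in the CH (adjusted p = 5.3e-09) than in the PR. The receptor S1pr1 was 6.16-fold higher in the RPE (adjusted p = 0.0004) and 9.74-fold higher in the CH (adjusted p = 7.2e-05) than in the PR.

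Downstream of the receptors, 8 of 19 genes of G proteins, small GTPases and their effectors were called higher in RPE than in PR and 9 higher in the CH, with median differences of 0.94 and 1.19. Rhoc, a small GTPase, was 12.4-fold higher in RPE than in PR (adjusted p = 5.7e-08), and Gnai1, an inhibitory G protein subunit, was 8.81-fold higher (adjusted p = 3.4e-07). Gna12, Gna13, Rock1 and Rock2, which carry the signal from LPA receptors to the cytoskeleton, were not called in these comparisons. Of 13 genes of the SRF and YAP target list, 8 were called higher in each layer than in the PR, with median differences of 1.73 for the RPE and 2.08 for the CH. Ctgf and Tagln were called lower in RPE than in CH, with differences of -2.58 ± 0.21 (adjusted p = 0.00012) and -1.92 ± 0.17 (adjusted p = 0.00015). Ctgf encodes a matricellular protein and Tagln a protein of smooth muscle and fibroblasts, and both moved with the fibroblast markers, whose part was not tested. Cyr61, a target gene related to Ctgf, differed by 0.04 ± 0.21 between RPE and CH (adjusted p = 0.92).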

How the data were processed

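Gene expression was measured on 9 dual-colour arrays, 3 each of CH, RPE and PR. The authors deposited the output of Agilent Feature Extraction 9.5.3.1, in which the mean signal and median local background of a spot are intensity values as scanned. Its deposited processed signals are intensities after background and dye correction by that software. The authors' series table holds log2 values whose normalization is not given in the sources used here. Its columns had medians of 9.38 to 9.55 and correlated with log2 Cy5 at 0.985 to 0.999, so it was read as log2 Cy5, with centring unknown. The submitters' processing notes name R 2.14.0 and limma. Processed signals and series table served as alternatives.

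Background was corrected with normexp (offset 50) and log ratios were normalized by loess in limma 3.58.1 (R 4.3.3), with weight 0 for control and outlier-marked spots, which were then dropped. Spots of a probe were averaged. Tissue means were fitted over the 9 arrays with lmFit and eBayes, and p-values were adjusted by Benjamini-Hochberg over all 39429 probes. A call took the study's thresholds, 2.5 for the fold change and 0.01 for the adjusted p. Single channels used loess and Aquantile normalization. A bound compares normalized Cy5 means, with the lowest signal well above background in place of a dimmer spot. The fit was tested on simulated data. Figures used Python 3.11.15, pandas 2.3.3, numpy 2.4.6 and matplotlib 3.10.9.

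The members and the lists of pathway and marker genes were chosen with earlier results of these data known. A member is reported at its brightest probe (mean log2 Cy5 over the arrays), and a pathway gene at its called probe with the largest difference. From each pathway list, up to 3 called genes per comparison and direction with the largest difference and no overlap of arrays were eligible for naming, and Lpar5 and Ppap2c were named always. The most alike genes are the 3 with the smallest root mean square difference. Some named genes outside this rule, among them Pla1a, Gdpd1, Gna12, Gna13, Rock1 and Rock2, were chosen after their values were seen. Names came from the files and a RefSeq table (GRCm38.p6, names only), through the accession for 26055 probes, the symbol for 3196 and an older symbol for 928. The other 9250 kept the name in the files. The markers Col6a3 and Si were not measured under these names, and 1 marker gene is not reported here. Whether samples come from different mice is not stated beyond the eye, so p-values measure the spread between these samples, and 3 arrays per tissue limit the precision. Slide and scan coincide: slide 1 held CH and RPE replicates 1 and 3, slide 2 replicate 2 of each tissue and slide 3 PR replicates 1 and 3. The human arrays of the study were not analysed here.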

Additional observations from a re-analysis of the deposited data

Results flagged for a closer look

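After normalization, the reference (Cy3) signal of the dimmer Lpar2 probe was far higher on CH replicate 1 than on the other arrays. It was 8.64 in log2 on that array and between 7.14 and 7.56 on the other 8. The gap to the nearest array was 0.721 of the whole range. The normalized Cy5 signal of this probe was also highest on CH replicate 1, at 8.73, and the log2 ratio there was 0.08. As scanned, 2 arrays stood out. The Cy3 signal was 313 on CH replicate 1, 264 on RPE replicate 2 and 106 to 151 on the others. The Cy5 signal as scanned was highest on RPE replicate 2, at 698, against 555 on CH replicate 1. Chance marks about 1 in 20 groups in this way, and groups of 3 arrays were not examined.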

How the results depend on the processing

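Of 540 values of single members under the alternatives, 504 moved by less than 1 SD between replicates, 36 moved by more and none changed sign. Part of the 504 could not move, so their share does not measure robustness. No member spot carried an outlier mark, only Enpp2 had saturated spots, and fitting only the arrays of the 2 tissues leaves a difference of means unchanged. The count of members called between RPE and CH, 1 at the main settings, was 0 with the processed signals, with median centring, with Cy5 alone, without saturated spots (Enpp2 then has no RPE array), with the series table, with only the arrays of the 2 tissues and with slide as a block. The Enpp2 difference was 1.53, 1.02 and 0.15 under the first 3 and stayed 1.45 under the last 2, and Enpp2 was not analysed in the series table. Replicate number as a block also gave 0 members in that comparison, with the Enpp2 difference unchanged, and 0 higher and 4 lower pathway genes, so that Gpam was not called. It changed no call of a member against the PR. Correlations of the deviations ran from -0.08 to 0.29 for same-numbered samples and from -0.31 to 0.25 for differently numbered ones. Those of replicate 2, whose arrays shared a slide, were positive in every comparison (0.16 to 0.29), so pairing and slide cannot be told apart there. The numbers were not taken as pairs. Pathway genes called between RPE and CH, 5 at the main settings, were 11 with median centring and 15 at a fold change above 2. With single arrays left out, members called were 0 to 2 between RPE and CH and 7 to 7 in both comparisons with the PR, and pathway genes called were 4 to 7, 39 to 42 between RPE and PR, and 41 to 44 between CH and PR. Without saturated spots Enpp2 had no value for the RPE against the PR, and Lpar2 was not called for the CH against the PR with the mean of its probes. The causes were not tested beyond what each setting leaves out. Saturation limits Enpp2 in RPE and CH, and signals near the background limit Lpar1 and the PR values of Lpar2 and Lpar4.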
